A study of Mus musculus with 12 samples.

Results

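The genes described are 10 extracellular matrix genes of the dermis, out of 22180 genes measured one by one on arrays of mouse dorsal skin. They were taken from a list of names that was drawn up with earlier results of these data known. No measured value enters the rule beyond taking the row of highest mean for each gene. They comprise 5 genes of fibrillar collagen chains (Col1a1, Col1a2, Col3a1, Col5a1 and Col5a2), Col6a3 for a chain of the microfibril collagen VI, 3 genes of matricellular proteins (Tnc for tenascin C, Postn for periostin and Sparc for osteonectin) and Fn1 for fibronectin. All 10 had a row of their own in the deposited table, and each lay above the median of its array on all 12 arrays. The smallest margin was 0.47 on the log2 scale, for Tnc.

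The skin came from C57Bl/6 mice, male and female together, and each array read 1 pool of 4 or 5 mice. The 6 groups were WT, IL-6KO (loss of the cytokine IL-6), IL-17C+ (a transgene overexpressing the cytokine IL-17C) sampled at involved and at uninvolved sites, and IL-17C+KO (the transgene together with loss of IL-6), also sampled at involved and at uninvolved sites. Each group had 2 pools, 1 from mice aged 10 weeks and 1 from mice aged 14 weeks. The sources used here do not name the promoter that drives the transgene, nor say whether involved and uninvolved pools share mice. P-values therefore measure the spread between pools and not between mice. Levels are log2 of the intensity that the authors deposited, and a difference of 1 on that scale is a doubling. An array level depends on the probes as well as on the RNA, so levels are compared between samples and not between genes.

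The labels and the arrays disagree in places, and groups are named below only as they are labelled. Il17c was lowest in skin labelled WT (4.67 at 10 weeks and 4.96 at 14 weeks) and IL-17C+ uninvolved (4.74 and 4.16), and reached 6.30 and 6.17 in skin whose label is IL-6KO and names no transgene. In the other transgenic groups Il17c was at 5.81 and 6.63 (IL-17C+ involved), 6.16 and 6.25 (IL-17C+KO uninvolved) and 5.32 and 5.62 (IL-17C+KO involved). Il6 was highest in skin labelled IL-17C+KO uninvolved (4.93 and 5.00), against 2.92 and 2.88 in WT, although IL-6 should be lost there. It should also be lost in IL-17C+KO involved skin, where Il6 was at 3.14 and 4.64, and IL-17C+ involved skin was at 4.23 and 3.21. The values in WT and in IL-6KO (2.68 and 2.79) lay below the lowest array median, 3.97. The sources used here do not say whether the rows for these genes read the transgene or the disrupted part, so they may check neither label. Whether group labels were exchanged was not tested. The skin type field of the IL-6KO pools reads involved, and that of the WT pools reads uninvolved.

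Collagen I and collagen III chains form the thick fibrils that give dermis its strength, and collagen V chains sit inside those fibrils and limit their width. Matricellular proteins are secreted into the matrix and act on cells and on fibril assembly more than as scaffold. Tenascin C is scarce in resting skin and is made at wound edges and in inflamed skin, periostin binds collagen and tenascin C and aids crosslinking, and osteonectin binds collagen and assists its assembly. Dermal fibroblasts are the main source of most of these proteins.

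Col1a1 lies on chromosome 11 (94936224 to 94953042, GRCm38.p6) and Sparc on the same chromosome (55394159 to 55420080). Col3a1 (chromosome 1, 45311538 to 45349706) and Col5a2 (chromosome 1, 45374331 to 45503282) lie near one another. Col6a3 (90766860 to 90844001) and Fn1 (71585473 to 71653280) are also on chromosome 1. The others are Col1a2 on chromosome 6 (4505618 to 4541543), Col5a1 on chromosome 2 (27886381 to 28039510), Tnc on chromosome 4 (63959785 to 64047015) and Postn on chromosome 3 (54359267 to 54391041).

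Promoter sequences from RefSeq (GRCm38.p6, 250 bases before to 50 after an annotated start) were matched for 7 of the 10 genes. The 4 below are shown because these genes move in different ways in the results: Col1a2 and Col3a1 as fibrillar collagens, and Tnc and Postn as matricellular genes. Each reads 5′ to 3′ on the strand of the gene. Capitals mark every match to 3 motifs, the TATA box (TATAAA), the CCAAT box (CCAAT) and the GC box (GGGCGG), searched on both strands.
Col1a2, chr6:4505368-4505667, plus strand: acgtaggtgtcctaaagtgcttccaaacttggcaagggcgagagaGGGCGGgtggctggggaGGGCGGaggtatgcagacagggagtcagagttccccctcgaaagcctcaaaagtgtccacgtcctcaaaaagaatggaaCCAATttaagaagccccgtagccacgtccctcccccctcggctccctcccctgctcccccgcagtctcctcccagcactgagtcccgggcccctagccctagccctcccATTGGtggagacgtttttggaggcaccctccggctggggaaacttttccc
Col3a1, chr1:45311288-45311587, plus strand: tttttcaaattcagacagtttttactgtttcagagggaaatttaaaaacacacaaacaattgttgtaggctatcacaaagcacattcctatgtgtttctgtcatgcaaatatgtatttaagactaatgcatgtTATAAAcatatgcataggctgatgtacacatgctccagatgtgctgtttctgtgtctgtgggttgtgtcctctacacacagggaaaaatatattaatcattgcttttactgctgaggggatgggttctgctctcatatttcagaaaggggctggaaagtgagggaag
Tnc, chr4:64046966-64047265, minus strand: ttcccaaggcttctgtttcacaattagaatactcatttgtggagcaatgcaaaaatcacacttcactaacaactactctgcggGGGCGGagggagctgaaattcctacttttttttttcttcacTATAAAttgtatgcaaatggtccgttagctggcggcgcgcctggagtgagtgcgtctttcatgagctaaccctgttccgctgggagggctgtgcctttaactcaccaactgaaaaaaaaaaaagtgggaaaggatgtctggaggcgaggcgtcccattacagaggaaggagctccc
Postn, chr3:54360857-54361156, plus strand: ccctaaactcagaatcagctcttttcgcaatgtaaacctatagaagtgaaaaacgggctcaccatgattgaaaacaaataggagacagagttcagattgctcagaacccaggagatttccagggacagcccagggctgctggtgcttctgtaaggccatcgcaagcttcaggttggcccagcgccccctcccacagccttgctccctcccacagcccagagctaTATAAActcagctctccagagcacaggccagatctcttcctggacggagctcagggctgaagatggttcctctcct

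The window of Col1a2 held 2 GC boxes, at 205 and 188 bases before the start, and CCAAT boxes in both orientations. A TATA box stood 117 bases before the start in Col3a1, 126 before it in Tnc and 26 before it in the Postn window shown. Of all 32851 promoters of this length, 13.6% held a TATA box, 37.4% a CCAAT box and 35.7% a GC box. An AP-1 motif (TGANTCA, in 7.81% of all promoters) and a STAT motif (TTCNNNGAA, in 8.3%) were also searched on both strands, and those letters were in no window of these 7 genes. The matches are a description of these windows only.

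The collagen I genes were highest in skin labelled WT and IL-17C+ uninvolved and lowest in skin labelled IL-6KO. For Col1a1 the log2 levels at 10 and 14 weeks were 13.34 and 12.88 for WT and 13.27 and 12.84 for IL-17C+ uninvolved. They were 12.32 and 12.41 for IL-17C+ involved and 12.37 and 12.31 for IL-17C+KO uninvolved. In IL-17C+KO involved they were 11.67 and 11.18, and in IL-6KO 11.21 and 10.59. The pools of Col1a1 thus fell into 3 bands that did not overlap, with 2 groups in each band and the pools of those 2 groups overlapping.

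Col1a2, which encodes the other chain of collagen I, followed the same bands. Its levels were 12.57 and 11.98 for WT, 12.70 and 11.99 for IL-17C+ uninvolved, 11.13 and 11.22 for IL-17C+ involved, and 11.31 and 11.34 for IL-17C+KO uninvolved. In IL-17C+KO involved they were 10.65 and 10.36, and in IL-6KO 10.23 and 9.75. Col1a1 and Col1a2 had the smallest distance of any pair of the 10 genes, 0.17 (root mean square of the difference of their centred log2 profiles over the 12 arrays).

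Col3a1, the chain of collagen III, had no middle band. Its levels were 12.35 and 11.79 for WT, 12.42 and 11.66 for IL-17C+ uninvolved, 12.03 and 11.93 for IL-17C+ involved, and 11.90 and 11.95 for IL-17C+KO uninvolved. They were 10.10 and 10.47 for IL-17C+KO involved and 10.07 and 9.75 for IL-6KO. The first 4 groups overlapped with their neighbours in the order of levels, and both of the last 2 groups lay below all of them.

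The collagen V genes took that pattern further. Col5a1 was at 8.48 and 8.08 for WT, 8.62 and 7.96 for IL-17C+ uninvolved, 8.46 and 8.44 for IL-17C+ involved, and 8.36 and 8.49 for IL-17C+KO uninvolved, against 6.92 and 7.15 for IL-17C+KO involved and 6.92 and 6.43 for IL-6KO. Col5a2 was at 8.13 and 7.70 for WT and 8.64 and 7.56 for IL-17C+ uninvolved, and at 8.78 and 8.74 for IL-17C+ involved and 8.72 and 9.18 for IL-17C+KO uninvolved. Its low values were 6.60 and 7.04 for IL-17C+KO involved and 6.71 and 6.44 for IL-6KO. For Col5a2 the highest groups were therefore IL-17C+KO uninvolved and IL-17C+ involved, where for collagen I they were WT and IL-17C+ uninvolved.

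Col6a3 resembled Col5a2 and Postn more than the collagen I genes. Its levels were 8.02 and 8.07 for WT, 8.49 and 7.62 for IL-17C+ uninvolved, 9.10 and 8.95 for IL-17C+ involved, 8.78 and 9.12 for IL-17C+KO uninvolved, 6.58 and 7.50 for IL-17C+KO involved, and 6.96 and 7.07 for IL-6KO. Its distance to Postn was 0.17, and its distance to Col5a2 was 0.235.

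Among the matricellular genes, Tnc had the widest range of the 10, 94.2-fold between its lowest and highest array. It was at 5.41 and 4.68 for WT, 5.88 and 5.50 for IL-17C+ uninvolved and 5.20 and 5.91 for IL-6KO. It stood at 10.59 and 10.02 for IL-17C+ involved and at 10.30 and 11.07 for IL-17C+KO uninvolved. In IL-17C+KO involved the pools read 4.52 and 6.79. Tnc was high in 2 groups and low in the other 4, and those 4 overlapped with their neighbours in the order of levels.

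Postn was high in the same 2 groups. Its levels were 10.88 and 11.07 for IL-17C+ involved and 10.83 and 11.27 for IL-17C+KO uninvolved, against 9.86 and 9.83 for WT and 10.41 and 9.62 for IL-17C+ uninvolved. IL-6KO pools were at 9.02 and 9.07 and IL-17C+KO involved pools at 8.17 and 9.21. Unlike Tnc, Postn was lower in IL-6KO than in WT in these pools, with no overlap, although that difference did not pass the test given below.

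Sparc, the third matricellular gene, stood closer to Col1a1 (distance 0.28) than Tnc did to any gene of the 10 (1.74 or more, with Postn the nearest). It was at 11.26 and 10.94 for WT, 11.52 and 10.56 for IL-17C+ uninvolved, 10.46 and 10.61 for IL-17C+ involved, 10.49 and 10.53 for IL-17C+KO uninvolved, 10.06 and 9.50 for IL-17C+KO involved, and 9.63 and 9.51 for IL-6KO. Its range was 4.06-fold, the narrowest of the 10 genes. Distances were not scaled, so those of Tnc also reflect its range of 94.2-fold and not only its order of groups.

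Fn1, the adhesive glycoprotein that cells lay down ahead of collagen, was at 9.12 and 9.36 for WT, 9.56 and 8.29 for IL-17C+ uninvolved, 9.06 and 9.35 for IL-17C+ involved, and 9.25 and 9.34 for IL-17C+KO uninvolved. It was at 7.99 and 7.72 for IL-17C+KO involved and 7.87 and 7.21 for IL-6KO. Its nearest gene among the 10 was Col5a1, at a distance of 0.24, and like Col5a1 it separated the last 2 groups from the other 4.

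**Figure D1:**
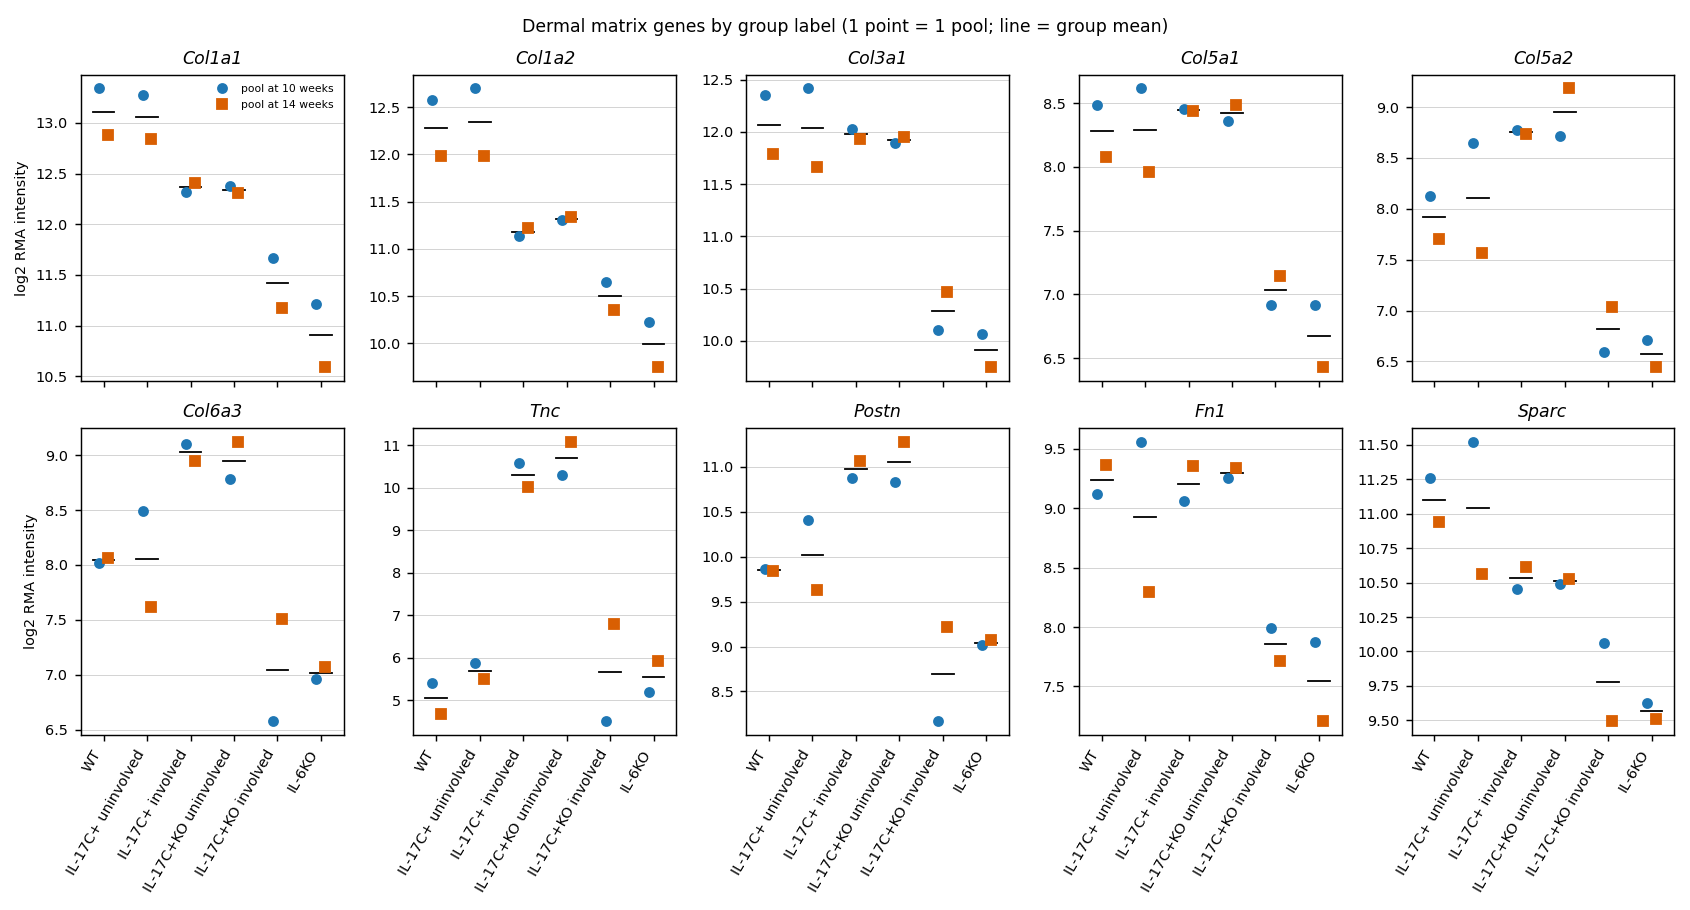
Log2 RMA intensity of each of the 10 genes (vertical axis) in each labelled group (horizontal axis), with 1 point for each pool at 10 or 14 weeks and a line at the group mean. Tnc spans 94.2-fold, with both IL-17C+ involved and both IL-17C+KO uninvolved pools above 10, while Col1a1 is highest in WT and IL-17C+ uninvolved.

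In skin labelled IL-6KO, 4 of the 10 genes were lower than in WT at an adjusted p under 0.05 in limma's moderated test (Benjamini-Hochberg over 22180 genes), and none was higher. All 4 were fibrillar collagen genes. In this comparison 0.455% of all genes passed in either direction and 0.0947% passed as lower. Col1a2 was lower by a factor of 4.88 (log2 difference -2.29 ± 0.30 SE, 2 pools a group, adjusted p 0.00836) and Col1a1 by a factor of 4.61 (-2.21 ± 0.30, adjusted p 0.00904). Col3a1 differed by -2.16 ± 0.32 (adjusted p 0.0141) and Col5a1 by -1.61 ± 0.27 (adjusted p 0.029). For Col1a1 the difference was -2.12 at 10 weeks and -2.29 at 14 weeks.

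The other 6 genes did not pass in that comparison. Sparc differed by -1.53 ± 0.31 (adjusted p 0.0566), Fn1 by -1.70 ± 0.35 (0.0661), Col5a2 by -1.34 ± 0.34 (0.146), Col6a3 by -1.03 ± 0.34 (0.35) and Postn by -0.81 ± 0.36 (0.57). Tnc gave 0.51 ± 0.55 (adjusted p 0.88), with overlapping pools. At an unadjusted p under 0.05, 9 of the 10 genes would count, all but Tnc, beside 1865 of all 22180 genes. The median difference over the 10 genes was -1.57, beside -0.01 over all genes.

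Which genes passed here turned on single pools. Without the WT pool at 10 weeks, or without the IL-6KO pool at 14 weeks, 0 of the 10 passed, and without the IL-6KO pool at 10 weeks 2 passed. With only the arrays of these 2 groups in the fit, 7 passed, all lower. In bulk skin, fewer cells of a type and less RNA per cell cannot be told apart.

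Marker lists moved with the IL-6KO label as well. Of 12 fibroblast markers, 1 was lower at the threshold (Cd34, -1.52 ± 0.29, adjusted p 0.0414) and none higher, with a median difference of -0.69. Pdgfra, a fibroblast receptor, differed by -0.28 ± 0.35 and Thy1, a fibroblast surface protein, by -0.06 ± 0.25, and neither passed. The fibroblast list mean was 7.36 and 7.85 in the WT pools and 6.82 and 6.99 in the IL-6KO pools. Of 18 hair shaft and matrix markers, 5 were higher in IL-6KO (median difference 2.22), with list means of 5.64 to 6.11 in WT and 7.69 to 7.88 in IL-6KO. Of 20 skeletal muscle markers, 1 was lower (median difference -1.12), and of 9 stressed epidermis markers 2 were higher (median difference 2.45). With the hair list mean as a covariate Col1a1 differed by -1.76 ± 0.56 (adjusted p 1), and with the muscle list mean by -2.06 ± 0.46 (adjusted p 0.458). Both covariates left 0 of the 10 genes past the threshold, and the median standard error of the 10 genes was 1.84 and 1.47 times as large. The part of these tissues in the result was not tested.

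In skin labelled IL-17C+ involved, Tnc rose 38.4-fold over WT, while none of the fibrillar collagens passed. The difference for Tnc was 5.26 ± 0.55 (adjusted p 0.000582), being 5.18 at 10 weeks and 5.34 at 14 weeks. Tnc was 1 of 10 genes past the threshold, where 1.8% of all genes passed. Postn differed by 1.13 ± 0.36 (adjusted p 0.176), Col6a3 by 0.98 ± 0.34 (0.231) and Col5a2 by 0.84 ± 0.34 (0.331). In the other direction, Col1a2 differed by -1.10 ± 0.30 (adjusted p 0.0957), Col1a1 by -0.75 ± 0.30 (0.329) and Sparc by -0.57 ± 0.31 (0.527). The median over the 10 genes was 0.07, beside 0.01 over all genes.

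Against uninvolved skin of the same transgenic label, Tnc rose 24.4-fold in IL-17C+ involved skin (4.61 ± 0.55, adjusted p 0.00138), again as 1 of 10 genes, where 1.61% of all genes passed. Col1a2 differed by -1.16 ± 0.30 (adjusted p 0.0841), Col1a1 by -0.69 ± 0.30 (0.368), Col6a3 by 0.97 ± 0.34 (0.235) and Postn by 0.96 ± 0.36 (0.279). Leaving out 1 array at a time moved Col6a3 between 0.41 and 1.53 and Postn between 0.39 and 1.52. This comparison and the preceding one share the IL-17C+ involved pools. IL-17C+ uninvolved skin itself gave 0 of 10 genes past the threshold against WT in limma, where 0.0541% of all genes passed. At an unadjusted p under 0.05 it gave 0 of the 10, beside 1261 of all 22180 genes. There the differences of the fibrillar collagens lay between -0.05 and 0.19 and those of the matricellular genes between -0.06 and 0.65.

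Muscle, neutrophil, stressed epidermis and fibroblast markers differed between these groups as well. Of 20 skeletal muscle markers, 17 were lower in IL-17C+ involved skin than in WT (median difference -2.30), and the list mean was 7.52 to 7.81 there and 9.62 to 10.37 in WT. Of 12 neutrophil markers, 8 were higher (median difference 2.94), and of 9 stressed epidermis markers 7 were higher (5.06). Against uninvolved skin 16 muscle markers were lower, and 8 neutrophil and 7 stressed epidermis markers were higher. Of 12 fibroblast markers, 2 were lower than in WT (median difference -0.19) and 3 lower than in uninvolved skin (-0.14), with none higher. With the muscle list mean as a covariate, Tnc differed from WT by 3.15 ± 0.96 (adjusted p 0.915) and from uninvolved skin by 2.46 ± 0.97 (adjusted p 1), and the median standard error of the 10 genes was 2.17 and 2.20 times as large. With the hair list mean as a covariate Tnc differed from WT by 4.59 ± 0.68 (adjusted p 0.0148). The part of these cell types in the rise of Tnc was not tested beyond these fits.

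In skin labelled IL-17C+KO uninvolved, 6 of the 10 genes were higher than in IL-6KO and none was lower, where 0.392% of all genes passed as higher and 0.397% in either direction. They were Tnc, both collagen V genes, Col3a1, Col6a3 and Postn. Tnc was 35.1-fold higher (5.13 ± 0.55, adjusted p 0.000768), Col5a2 5.19-fold (2.38 ± 0.34, adjusted p 0.00796), Col3a1 4.04-fold (2.02 ± 0.32, adjusted p 0.016) and Postn 4.03-fold (2.01 ± 0.36, adjusted p 0.0324). Col6a3 differed by 1.94 ± 0.34 (adjusted p 0.0302) and Col5a1 by 1.75 ± 0.27 (adjusted p 0.016). Those not past the threshold were Fn1 (1.75 ± 0.35, adjusted p 0.0594), Col1a1 (1.44 ± 0.30, 0.0707), Col1a2 (1.33 ± 0.30, 0.0917) and Sparc (0.94 ± 0.31, 0.409).

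The median difference over the 10 genes was 1.85 (all genes, -0.01), and 10 of 10 had an unadjusted p under 0.05, beside 1652 of all 22180 genes. This comparison shares the IL-6KO pools with that of IL-6KO and WT, and low IL-6KO pools enter both. The count fell to 1 without either IL-6KO pool or without the IL-17C+KO uninvolved pool at 14 weeks, and to 2 without that at 10 weeks. With the hair list mean as a covariate it was 1, although the differences stayed near their size, at 1.99 for Col3a1 and Postn, 1.70 for Col5a1, 2.24 for Col5a2 and 1.97 for Col6a3 (adjusted p 0.062 to 0.164). With the muscle list mean Tnc differed by 4.96 ± 0.46 (adjusted p 0.000205). Of 12 neutrophil markers, 6 were higher in the same comparison (median difference 2.78), with 1 of 9 stressed epidermis markers (2.09), and their part in the result was not tested.

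Within IL-17C+KO skin the same 6 genes were lower at sites labelled involved than at sites labelled uninvolved, and 0 were higher, where 0.478% of all genes passed as lower and 0.505% in either direction. Tnc was lower by a factor of 32.8 (-5.04 ± 0.55, adjusted p 0.0012), being -5.79 at 10 weeks and -4.29 at 14 weeks. Postn differed by -2.36 ± 0.36 (adjusted p 0.0147), Col5a2 by -2.13 ± 0.34 (0.0179), Col6a3 by -1.91 ± 0.34 (0.0303), Col3a1 by -1.64 ± 0.32 (0.0437) and Col5a1 by -1.39 ± 0.27 (0.0463). Fn1 (-1.44 ± 0.35, adjusted p 0.148), Col1a1 (-0.92 ± 0.30, 0.42), Col1a2 (-0.82 ± 0.30, 0.559) and Sparc (-0.73 ± 0.31, 0.739) did not pass. The median over the 10 genes was -1.54, and over all genes 0.02. The IL-17C+KO uninvolved pools are shared with the comparison against IL-6KO.

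The count of 6 fell to 1 without the IL-17C+KO involved pool at 10 weeks or the uninvolved pool at 14 weeks, and to 2 without the uninvolved pool at 10 weeks. It was 1 with the muscle list mean as a covariate, where Tnc alone stayed past the threshold (-4.17, adjusted p 0.0125). With the hair list mean it was 0, where Tnc differed by -3.98 ± 0.87 (adjusted p 0.232) and the other 5 genes by -2.45 to -1.52. Of 18 hair markers, 4 were lower in the involved pools (median difference -1.92), as were 6 of 12 neutrophil markers (-2.69) and 1 of 9 stressed epidermis markers (-2.54). Their part in the result was not tested.

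Involved skin of the 2 transgenic labels differed in the same 6 genes. In IL-17C+KO involved skin they were lower than in IL-17C+ involved skin, where 0.419% of all genes passed as lower and 0.649% in either direction. The differences were -4.65 ± 0.55 for Tnc (adjusted p 0.00212), -2.28 ± 0.36 for Postn (0.0126), -1.98 ± 0.34 for Col6a3 (0.0221), -1.94 ± 0.34 for Col5a2 (0.0228), -1.69 ± 0.32 for Col3a1 (0.0343) and -1.41 ± 0.27 for Col5a1 (0.0379). Fn1 (-1.35 ± 0.35, adjusted p 0.133), Col1a1 (-0.94 ± 0.30, 0.252), Sparc (-0.75 ± 0.31, 0.453) and Col1a2 (-0.68 ± 0.30, 0.504) did not pass. The median over the 10 genes was -1.55, and over all genes it was below 0 by less than 0.01. The IL-17C+KO involved pools are shared with the preceding comparison, so the return of the same 6 genes is not a separate result. The IL-17C+ involved pools are shared with the comparisons against WT and against IL-17C+ uninvolved skin. The count was 1 without either IL-17C+ involved pool or without the IL-17C+KO involved pool at 10 weeks, and 0 with either the muscle or the hair list mean as a covariate. With the muscle covariate Tnc differed by -3.00 ± 0.80 (adjusted p 0.832) and the other 5 genes by -1.86 to -1.27. With the hair covariate Tnc differed by -3.63 ± 0.86, and the others stayed near their size, at -2.32 for Postn, -2.25 for Col5a2, -1.91 for Col6a3, -1.75 for Col3a1 and -1.54 for Col5a1. In the same comparison 6 of 12 neutrophil markers (median difference -2.69), 2 of 9 stressed epidermis markers (-2.79) and 3 of 18 hair markers (-1.68) were lower, and 4 of 20 muscle markers were higher (1.72). Their part in the result was not tested.

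At sites labelled uninvolved, IL-17C+KO skin had more Tnc than IL-17C+ skin (5.00 ± 0.55, adjusted p 0.000926), as 1 of 10 genes, where 0.712% of all genes passed. The pools of both groups also enter comparisons above, so this difference in Tnc is not a separate result. Postn differed by 1.03 ± 0.36 (adjusted p 0.36), Col6a3 by 0.90 ± 0.34 (0.445) and Col1a2 by -1.02 ± 0.30 (0.231). With the muscle list mean as a covariate Tnc differed by 3.63 ± 0.71 (adjusted p 0.18). In this comparison 8 of 12 neutrophil markers (median difference 3.13) and 6 of 9 stressed epidermis markers (4.32) were higher and 1 of 20 muscle markers was lower, and their part in the result was not tested. IL-17C+KO involved skin against IL-6KO gave 0 of 10 genes past the threshold in limma, where 0.171% of all genes passed, and 0 at an unadjusted p under 0.05, beside 875 of all 22180 genes. There the fibrillar collagens differed by 0.24 to 0.52 and the matricellular genes by -0.35 to 0.21.

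**Figure D2:**
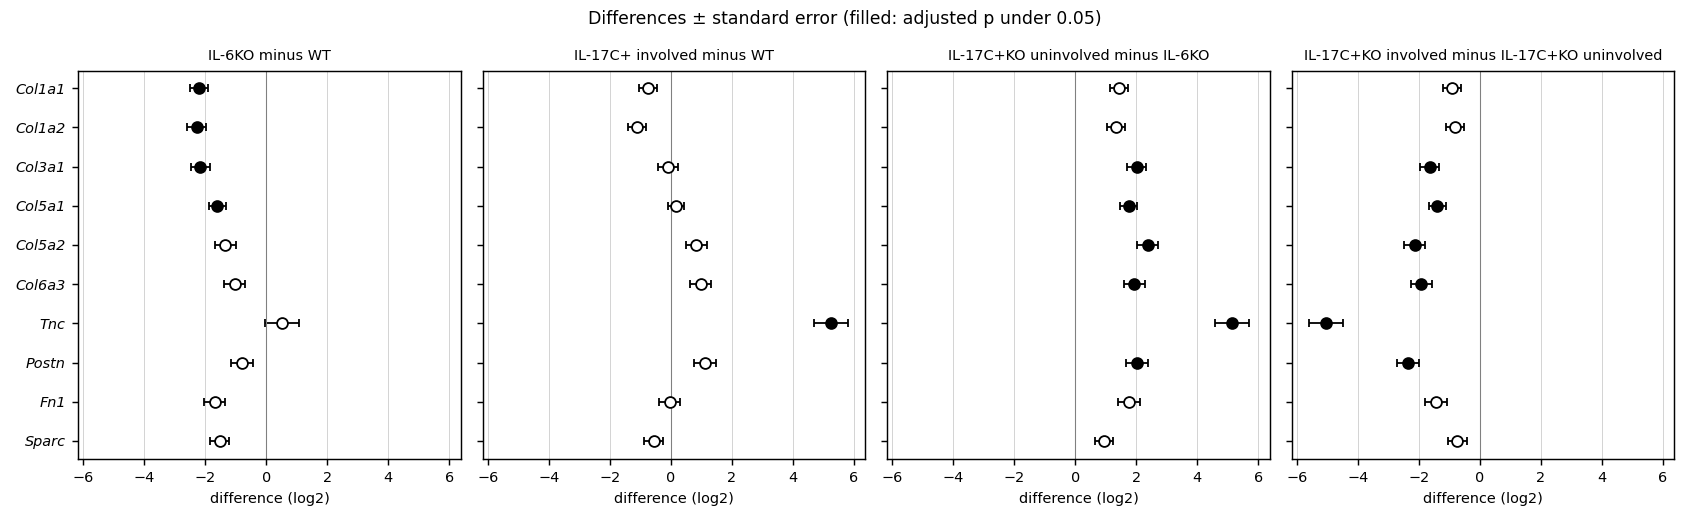
Log2 difference (horizontal axis) of each of the 10 genes (rows) in 4 comparisons between labelled groups, 1 comparison a panel, with moderated standard errors as bars and filled points where the adjusted p was under 0.05. The filled points are 4 fibrillar collagens in IL-6KO minus WT, Tnc alone in IL-17C+ involved minus WT, and the same 6 genes in the other 2 panels, to the right in one and to the left in the other.

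Both interactions were tested as differences between differences. They combine the same pools as the comparisons above and are not separate observations. The change between involved and uninvolved sites differed by IL-6 label for 4 of the 10 genes, all lower, where 1.43% of all genes passed as lower and 2.58% in either direction. Tnc gave -9.65 ± 0.78 (adjusted p 2.97e-05), Postn -3.31 ± 0.51 (0.00391), Col6a3 -2.88 ± 0.49 (0.0071) and Col5a2 -2.79 ± 0.48 (0.00827). Tnc was higher at involved sites in IL-17C+ skin and lower there in IL-17C+KO skin. Col5a1 (-1.55 ± 0.39, adjusted p 0.0562), Col3a1 (-1.58 ± 0.45, 0.103) and Fn1 (-1.72 ± 0.50, 0.11) did not pass. With the muscle list mean as a covariate 0 passed, and Tnc gave -6.63 ± 1.37 (adjusted p 0.234). In the same interaction 19 of 20 muscle markers were higher (median 3.21), and 10 of 12 neutrophil markers (-5.87) and 7 of 9 stressed epidermis markers (-6.70) were lower. Of 12 fibroblast markers 2 were higher and 1 lower (-0.29). The part of all these markers in the result was not tested.

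The difference between transgenic involved skin and skin without the transgene also varied with IL-6 label for Tnc (-5.17 ± 0.78, adjusted p 0.00793), as 1 of 10 genes, where 1.31% of all genes passed. Col1a2 gave 1.61 ± 0.42 (adjusted p 0.105) and Postn -1.47 ± 0.51 (0.272). The value for Tnc did not pass without the IL-17C+ involved pool at 10 weeks or without the WT pool at 14 weeks, which left a count of 0. With either tissue covariate the count was also 0. Here 13 of 20 muscle and 2 of 12 fibroblast markers were higher, and 11 of 18 hair, 7 of 12 neutrophil and 7 of 9 stressed epidermis markers were lower. The part of all these markers was not tested. Between 14 and 10 weeks 0 of 10 genes passed in limma, 0 had an unadjusted p under 0.05, and 0% of all genes passed, with 1856 of them under that unadjusted value.

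Class means set the fibrillar collagens beside the matricellular genes. Each gene was centred on its mean over the 12 arrays, and the mean was taken over the 5 fibrillar and the 3 matricellular genes. The fibrillar mean was 0.62 for WT, 0.66 for IL-17C+ uninvolved, 0.44 for IL-17C+ involved and 0.48 for IL-17C+KO uninvolved, against -0.90 for IL-17C+KO involved and -1.30 for IL-6KO. The matricellular mean was 1.43 for IL-17C+ involved and 1.58 for IL-17C+KO uninvolved, against -0.26 for IL-17C+ uninvolved, -0.51 for WT, -1.12 for IL-6KO and -1.13 for IL-17C+KO involved. The matricellular mean minus the fibrillar mean was therefore -1.13 in WT and -0.91 in IL-17C+ uninvolved, near 0 in IL-17C+KO involved (-0.23) and IL-6KO (0.18), and above 0 for both IL-17C+ involved (0.996) and IL-17C+KO uninvolved (1.10).

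By pool, that class difference lay between -1.20 and -0.90 in the 4 pools of WT and IL-17C+ uninvolved skin, and between 0.95 and 1.24 in the 4 pools of IL-17C+ involved and IL-17C+KO uninvolved skin. The IL-6KO pools gave -0.14 and 0.51, and the IL-17C+KO involved pools -0.66 and 0.20. The classes were not uniform within. Between IL-6KO and WT the fibrillar genes differed by -2.29 to -1.34 and the matricellular genes by -1.53 to 0.51. Between IL-17C+ involved and WT the fibrillar genes ran from -1.10 to 0.84 and the matricellular genes from -0.57 to 5.26. Sparc lay with the collagen I genes and Col5a2 with Postn and Col6a3. In IL-17C+ involved against WT the matricellular mean difference of 1.94 came mostly from Tnc (5.26), with Postn at 1.13 and Sparc at -0.57. The class contrast there therefore rests largely on Tnc, and class means without Tnc were not computed.

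**Figure D3:**
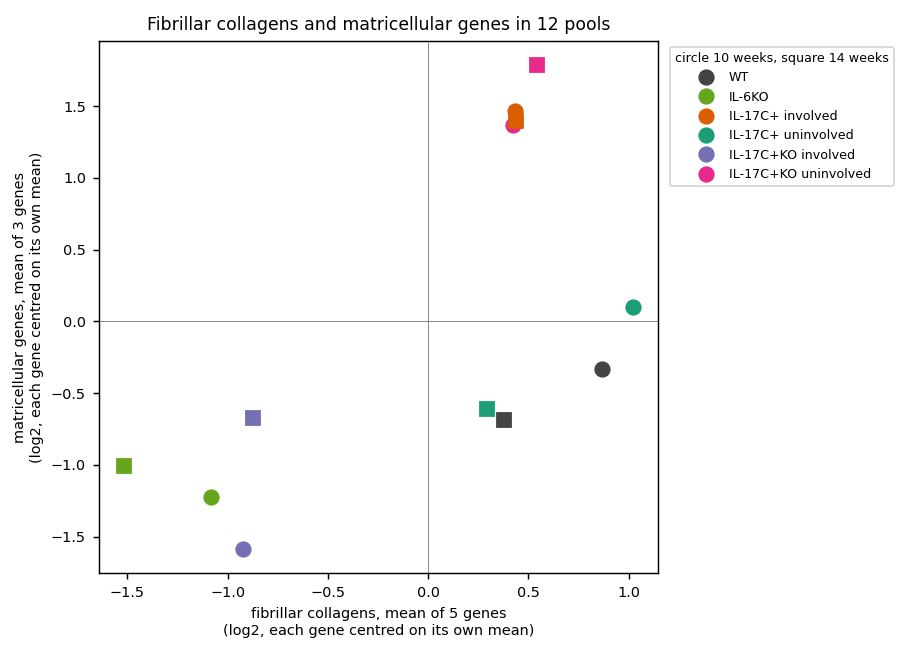
Mean centred log2 level of the 5 fibrillar collagen genes (horizontal axis) against that of the 3 matricellular genes (vertical axis), with 1 point for each pool, coloured by labelled group, as circles at 10 weeks and squares at 14 weeks. IL-6KO and IL-17C+KO involved pools lie at the lower left, and WT and IL-17C+ uninvolved pools lie to the right of those. IL-17C+ involved and IL-17C+KO uninvolved pools lie at the top, each of the 3 sets holding 4 pools. On the horizontal axis the WT (0.38) and IL-17C+ uninvolved (0.29) pools at 14 weeks lie left of the top set, whose lowest value is 0.42.

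By unscaled distance over the 10 genes together, the 6 labelled groups stood in 3 close pairs. The root mean square distance of group means was 0.15 between IL-17C+ involved and IL-17C+KO uninvolved, 0.24 between WT and IL-17C+ uninvolved, and 0.34 between IL-6KO and IL-17C+KO involved. All other pairs were 1.34 or more apart. Among them, Tnc weighed heavily where IL-17C+ involved or IL-17C+KO uninvolved skin was set against another group. Between WT and IL-17C+ involved (distance 1.81) Tnc differed by 5.26, and distances without Tnc were not computed. Tnc hardly differed in the pair at 1.34, IL-17C+ uninvolved (mean 5.69) and IL-17C+KO involved (5.65). Over all 22180 genes the 3 close pairs were at 0.30, 0.352 and 0.351. There IL-17C+ uninvolved and IL-17C+KO involved stood at 0.346, closer than WT and IL-17C+ uninvolved or IL-6KO and IL-17C+KO involved.

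Other matrix genes were counted on lists of matrix functions, which were also chosen with earlier results of these data known. In IL-6KO against WT, 1 of 20 genes of collagen synthesis and crosslinking was lower, namely Serpinh1, the collagen chaperone (-1.33 ± 0.25, adjusted p 0.0406). Of 18 other matricellular genes 1 was lower, Ccn2, a growth factor-induced matricellular protein (-1.96 ± 0.36, adjusted p 0.0376), and of 13 TGF-beta and myofibroblast genes 1 was lower, the ligand Tgfb2 (-1.24 ± 0.24, adjusted p 0.0445). Over all genes 0.0947% passed as lower. None of the 12 other collagens, 12 basement membrane genes, 8 small leucine-rich proteoglycans, 11 elastic fibre genes, 14 matrix receptors and 10 collagen degradation genes passed in limma. At an unadjusted p under 0.05 these lists held 5, 4, 5, 3, 3 and 5 genes, beside 1865 of all 22180 genes. Col15a1, a collagen of the basement membrane zone, had the smallest p of the other collagens (-1.32 ± 0.27, adjusted p 0.0611). List medians ran from -0.83 for collagen degradation and -0.81 for the proteoglycans to -0.26 for the TGF-beta genes.

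In IL-17C+ involved skin against WT, Col12a1, a collagen that binds the surface of fibrils, rose most of the 12 other collagens and alone passed (3.96 ± 0.28, adjusted p 7.87e-05). It was at 5.78 and 6.37 in WT and at 9.85 and 10.22 in IL-17C+ involved skin. Tnn, for tenascin N, rose by 3.02 ± 0.27 (adjusted p 0.000248), and Ccn2 was lower by -1.98 ± 0.36 (adjusted p 0.0156). Tnn and Ccn2 were among 1 higher and 2 lower of 18 other matricellular genes. Of 10 collagen degradation genes 4 rose, among them the collagenase Mmp13 (3.87 ± 0.43) and the inhibitor Timp1 (3.10 ± 0.41), and 1 fell. Another of the 4, Mmp8 (3.54 ± 0.37), is also on the neutrophil marker list, so the 2 counts share a gene. Over all genes 1.8% passed in either direction. Ogn, a small leucine-rich proteoglycan, was lower (-2.06 ± 0.36, adjusted p 0.013), as 1 of 8 in its list. Tgfb2 was lower here as well as in IL-6KO (-1.11 ± 0.24, adjusted p 0.0347), as 1 of 13 in its list. Both comparisons subtract the same WT pools, so the return of Tgfb2 and Ccn2 is not a separate result. Of 12 basement membrane genes 1 was higher (Col7a1) and 1 lower (Col17a1), and of 11 elastic fibre genes 2 were higher (Fbln5 and Fbn2).

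In IL-17C+KO uninvolved skin against IL-6KO, Col12a1 was again the 1 of 12 other collagens that passed (3.54 ± 0.28, adjusted p 0.000121), at 9.99 and 10.57 against 6.39 and 7.09. Of 18 other matricellular genes 3 rose, Tnn (2.59 ± 0.27), Thbs1 for thrombospondin (2.24 ± 0.42) and Spon1 for spondin (1.86 ± 0.30). Collagen degradation had 4 of 10 higher, with Mmp13 at 3.60 ± 0.43 and Timp1 at 3.09 ± 0.41. Mmp8, also on the neutrophil marker list, was among them (3.99 ± 0.37). Over all genes 0.392% passed as higher. Of 12 basement membrane genes 1 rose, Col7a1 of the anchoring fibrils (1.32 ± 0.25, adjusted p 0.0432). Ccn2 did not pass there (0.25 ± 0.36).

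**Figure D4:**
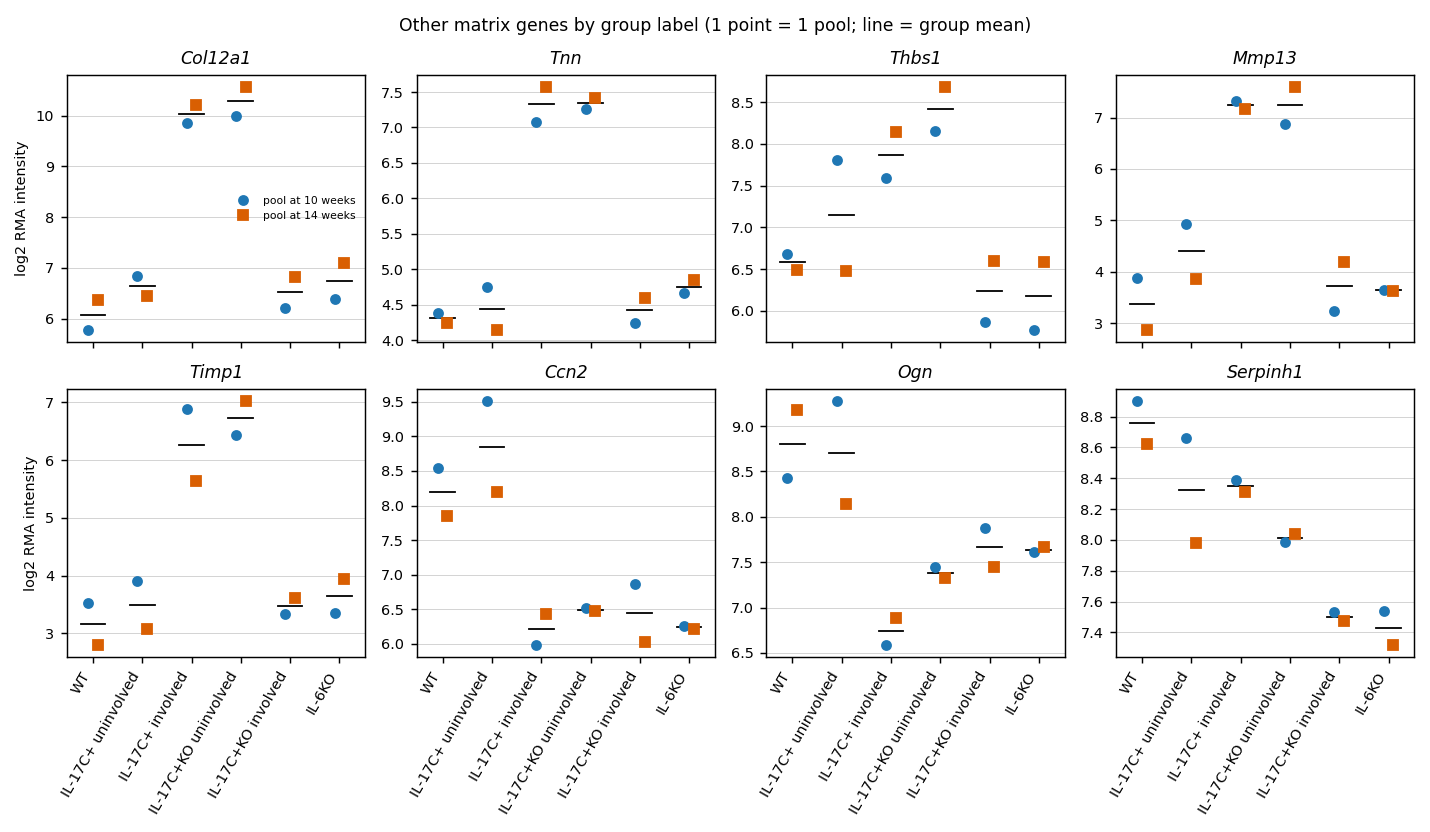
Log2 RMA intensity (vertical axis) of 8 other matrix genes, with 1 point for each pool and a line at the group mean, by labelled group. Col12a1 and Tnn are high in IL-17C+ involved and IL-17C+KO uninvolved skin, and Ccn2 is highest in WT and IL-17C+ uninvolved skin.

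For Col1a1, Tnc and Postn, the genes of nearest profile were taken over all 12 arrays, by the root mean square distance of centred log2 levels. Nearest to Col1a1 were Rian (0.33), Pcolce (0.37), Ace (0.39), Rcn3 (0.42) and Serpinh1 (0.42), where the own deviation of Col1a1 about its mean was 0.83. Pcolce encodes an enhancer of procollagen processing, and Rian is a noncoding RNA. Nearest to Tnc were Il1b (0.46), Retnlg (0.57), Stfa2l1 (0.57), Csta3 (0.58) and Clec4d (0.65), where the own deviation of Tnc was 2.44. Il1b, the cytokine interleukin-1 beta, was at 4.85 and 4.87 in WT and at 10.40 and 11.08 in IL-17C+ involved skin. Retnlg and Clec4d are also on the neutrophil marker list. Nearest to Postn were Cpxm1 (0.31), Thbs1 (0.35), Arg1 (0.38), Lum (0.40) and Pi15 (0.40), against an own deviation of 0.93.

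**Figure D5:**
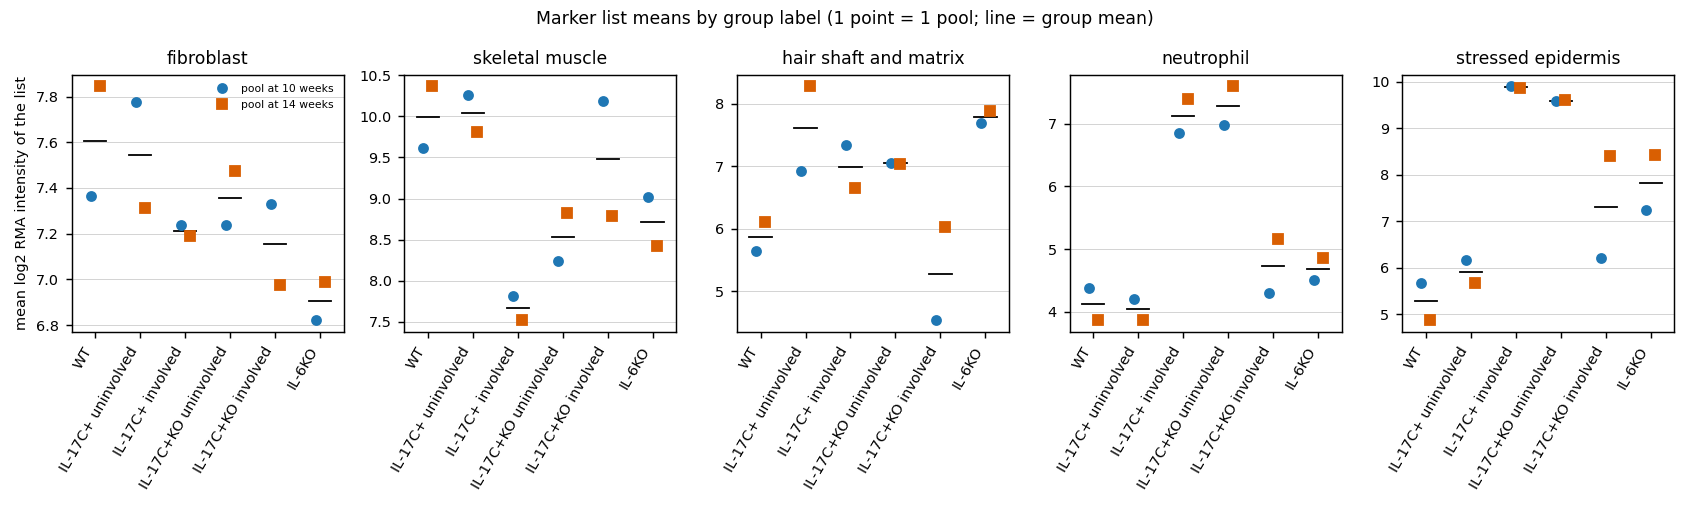
Mean log2 level of 5 marker lists, with 1 point for each pool and a line at the group mean, by labelled group. Neutrophil and stressed epidermis means are highest in IL-17C+ involved and IL-17C+KO uninvolved skin, the fibroblast mean is lowest in IL-6KO skin, and the muscle mean is lowest in IL-17C+ involved skin.

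Across groups, the fibroblast list mean was 7.61 for WT, 7.54 for IL-17C+ uninvolved, 7.35 for IL-17C+KO uninvolved, 7.21 for IL-17C+ involved, 7.15 for IL-17C+KO involved and 6.91 for IL-6KO. At most 1 of its 12 genes lay below the array median on any array, so fibroblast markers were present in all pools. The stressed epidermis list mean was 9.89 for IL-17C+ involved, 9.60 for IL-17C+KO uninvolved, 7.83 for IL-6KO, 7.30 for IL-17C+KO involved, 5.91 for IL-17C+ uninvolved and 5.27 for WT. The neutrophil list mean was 7.13 for IL-17C+ involved and 7.29 for IL-17C+KO uninvolved and between 4.04 and 4.73 in the other groups, with 1 to 9 of its 12 genes below the array median. No skeletal muscle marker lay below the array median on any array. Of 8 genes of cartilage, tendon and bone, 3 to 5 lay below it.

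A second row of 2 of the 10 genes was compared with the one used. For Col1a2 the second row differed between IL-6KO and WT by -2.68, in the same direction as the row used. For Col5a1 the second row had a mean level of 4.49, near the array median, and differed by 0.10, so its rows disagree.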

How the data were processed

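Transcript levels were read on 12 microarrays of pooled mouse dorsal skin. The authors deposited intensities on a linear scale (2.50 to 18384.7), made by RMA in Affymetrix Expression Console per the submitters' processing notes (versions not given in the sources used here). Because the plan assumed log2 values, log2 of the deposited intensities was taken here. Array medians lay between 3.97 and 4.23 on that scale, and the number of arrays limits the precision. Of 41345 rows, 23521 named 1 gene, 1814 several and 16010 none. The row with the highest mean stood for each of the 1082 genes with more than 1 row, which left 22180 genes.

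Differences were fitted in R 4.3.3 with limma 3.58.1 (group means plus age as a block over 12 arrays, lmFit, eBayes with trend, 5 residual degrees of freedom). Benjamini-Hochberg adjustment ran over all genes of a comparison, with a threshold of 0.05. The replicate numbers stand for age, 10 and 14 weeks, and pairing comes from that label. No gene differed by age at the threshold (0 of 22180). On simulated data for IL-6KO minus WT over 22180 genes, 39% of 100 genes changed by 1 on the log2 scale were recovered and 100% of 100 changed by 2, with 9 false calls.

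The 10 genes and all lists were chosen with earlier results of these data known. All 10 were named. From each other matrix list the genes that passed, up to 4 a comparison, or the 1 with the smallest p could be named, together with Il6, Il17c and the 5 genes nearest in profile to Col1a1, Tnc and Postn. Pdgfra, Thy1 and Cd34 were named after their values were seen. Alternatives tried were no block, a block of genotype and age, other filters and normalization, tissue covariates and leaving out each array.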

Additional observations from a re-analysis of the deposited data

Results flagged for a closer look

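Groups of 2 pools are too small for a check of single outlying samples, so the values below were picked out because an effect differed between labelled groups by a tested interaction term. The change between involved and uninvolved sites differed between IL-17C+KO and IL-17C+ skin by -9.65 for Tnc, -3.31 for Postn, -2.88 for Col6a3 and -2.79 for Col5a2 on the log2 scale. For Tnc, the change between transgenic involved skin and skin without the transgene differed with IL-6 label by -5.17. All 5 rest on pools whose Il17c and Il6 levels run against their labels in places, so the direction is that of the labels as given. For Tnc the change from uninvolved to involved sites was 4.61 in IL-17C+ skin and -5.04 in IL-17C+KO skin, close in size and opposite in sign. If the site labels of IL-17C+KO skin were exchanged, the change there would run the same way as in IL-17C+ skin, and whether they were exchanged was not tested.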

How the results depend on the processing

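The 30 member values past the threshold kept their direction in all 607 alternatives run for them, and 466 of those stayed past it. Many alternatives change only the error or the adjustment, such as leaving out the block, the eBayes trend or an array of another group. The fitted difference is the same there and its direction could not turn, so the 607 do not measure how stable the directions are. With the muscle list mean as covariate the number of the 10 genes past the threshold was 0 in IL-6KO minus WT, IL-17C+ involved minus WT, IL-17C+ involved minus IL-17C+ uninvolved, IL-17C+KO involved minus IL-17C+ involved, IL-17C+KO uninvolved minus IL-17C+ uninvolved and both interactions, and 1 in IL-17C+KO involved minus IL-17C+KO uninvolved. With the hair list mean it was 0 in IL-6KO minus WT, IL-17C+KO involved minus IL-17C+KO uninvolved, IL-17C+KO involved minus IL-17C+ involved and the transgene by IL-6 interaction, and 1 in IL-17C+KO uninvolved minus IL-6KO. With only the arrays of the groups compared it was 7 in IL-6KO minus WT. Without the eBayes trend, and among genes that exceeded the array median on 2 or more arrays, it was 2 in IL-17C+ involved minus WT, in IL-17C+ involved minus IL-17C+ uninvolved and in the transgene by IL-6 interaction. With quantile normalization repeated it was 2, 2 and 3 there. The matricellular minus fibrillar mean in IL-17C+ uninvolved skin, -0.91, was -0.86 with quantile normalization repeated and -0.82 when a gene's rows were averaged.

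Tnc in IL-6KO minus WT, which did not pass, turned to -0.64 with the muscle covariate, -0.63 with the hair covariate and -0.13 without the WT pool at 14 weeks (up to 1.16 without the one at 10 weeks). The cause of these changes was not tested. Without the replicate block, 3 genes passed in IL-6KO minus WT where 4 passed with it (Col5a1 at an adjusted p of 0.0603). It left 4 of 6 in IL-17C+KO involved minus IL-17C+KO uninvolved (Col3a1 at 0.0645, Col5a1 at 0.0703) and 5 of 6 in IL-17C+KO involved minus IL-17C+ involved (Col5a1 at 0.0533). A block of genotype and age also left 4 of 6 within IL-17C+KO skin, and no count moved by over 1.5 times.

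Leaving out each array in turn gave 0 to 6 genes in IL-6KO minus WT, 1 to 9 in IL-17C+KO uninvolved minus IL-6KO, 1 to 7 in IL-17C+KO involved minus IL-17C+KO uninvolved and in IL-17C+KO involved minus IL-17C+ involved, 0 to 1 in the transgene by IL-6 interaction and 3 to 6 in the site by IL-6 interaction. The other 3 comparisons with 1 gene past the threshold kept 1, and those with 0 kept 0. A group left with 1 pool is assumed to vary like the others. With 2 pools a group, the self-test of IL-6KO minus WT recovered 39% of changes of 1 on the log2 scale, which limits what a missed threshold shows. That share holds for the simulated settings, and recovery in the other comparisons was not tested.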
